A study of Mus musculus with 4 samples.

Results

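The 48 genes described here encode the machinery that copies DNA and the machinery that divides the cell, and they are the usual transcript markers of proliferation. They were chosen by symbol, all 48 had a single row in the deposited table of 56691 genes, and all 48 passed the filter on low counts that left 16234 genes for testing. By their known roles, 24 were taken as DNA replication members and 24 as mitotic members, and the main question was whether the replication members and the mitotic members differed in their response to knockdown of Scd1.

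The libraries came from wild-type mouse cardiac fibroblasts, primary heart cells of mice aged P1 to P3, on day 7 of reprogramming towards cardiomyocyte-like cells. The tested cells, MGT+shScd1, carried the cardiac transcription factors Mef2c, Gata4 and Tbx5 (MGT) with a short hairpin RNA against Scd1, the gene of stearoyl-CoA desaturase. The MGT+shNT cells carried the same 3 factors with a non-targeting hairpin, so no fibroblasts without MGT are part of the comparison. Each group held 2 libraries. The labels do not name the promoter that drives the factors, do not say whether cells were selected for carrying them, and do not state whether the replicates are separate cultures or animals. The p-values therefore rest on the spread between replicates in these 4 libraries, moderated across all genes by edgeR (median prior degrees of freedom 10.9). That spread may be technical.

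A cell that is about to divide passes through an ordered programme. In late G1, E2F transcription factors and cyclin E switch on the genes of DNA replication, the MCM helicase is loaded onto origins by Cdc6 and Cdt1, and Cdc45 and the GINS proteins activate it. In G2 and mitosis, Foxm1, B-Myb and the loss of repression by the DREAM complex switch on cyclin B, Cdk1 and the kinases, kinesins and checkpoint proteins that separate the chromosomes. Neonatal cardiac fibroblasts divide readily in culture, whereas cardiomyocytes largely leave the cell cycle after birth.

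Because the replication and mitotic programmes are known to be read from different promoter elements, the promoter letters of some members are shown first. RefSeq promoter windows of GRCm38.p6, each of 250 bases before and 50 bases after an annotated start, were matched by symbol for 39 members, 20 of the 24 replication members (22 windows) and 19 of the 24 mitotic members (19 windows). Windows were searched on both strands for the E2F element (TTTGGCGC, TTTCGCGC, TTTCCCGC or TTTGCCGC), for the cell cycle genes homology region or CHR (TTTGAA or TTCGAA), to which the DREAM complex and the B-Myb and Foxm1 complexes bind, and for the CCAAT box (CCAAT), to which the factor NF-Y binds. Stretches of 160 bases are printed for 2 helicase subunits with E2F letters (in capitals), for the ribonucleotide reductase gene Rrm1, the member that rose, whose window had neither E2F nor CHR letters (CCAAT in capitals), and for 3 mitotic members with CHR letters (in capitals). The stretches lie just before the RefSeq start and are given 5′ to 3′ on the strand of the gene. Those of Cdk1 and Cdc20 end 26 and 9 bases short of it, where the gene itself begins in the GENCODE M21 annotation.
Mcm5, plus strand, chr8:75109349-75109508: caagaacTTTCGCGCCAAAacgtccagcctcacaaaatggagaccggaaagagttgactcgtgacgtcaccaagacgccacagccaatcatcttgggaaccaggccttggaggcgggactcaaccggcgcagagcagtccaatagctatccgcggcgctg
Mcm6, minus strand, chr1:128359706-128359865: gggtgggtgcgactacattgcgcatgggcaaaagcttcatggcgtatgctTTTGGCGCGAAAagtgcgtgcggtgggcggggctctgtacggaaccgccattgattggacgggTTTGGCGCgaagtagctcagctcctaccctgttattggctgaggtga
Rrm1, plus strand, chr7:102441535-102441694: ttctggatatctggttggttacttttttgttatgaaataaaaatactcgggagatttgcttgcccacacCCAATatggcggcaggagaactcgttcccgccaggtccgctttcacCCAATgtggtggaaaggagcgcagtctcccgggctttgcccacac
Mki67, minus strand, chr7:135716380-135716539: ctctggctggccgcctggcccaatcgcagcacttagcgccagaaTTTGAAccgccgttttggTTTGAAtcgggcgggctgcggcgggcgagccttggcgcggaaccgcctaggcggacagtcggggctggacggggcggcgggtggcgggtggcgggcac
Cdk1, minus strand, chr10:69352939-69353098: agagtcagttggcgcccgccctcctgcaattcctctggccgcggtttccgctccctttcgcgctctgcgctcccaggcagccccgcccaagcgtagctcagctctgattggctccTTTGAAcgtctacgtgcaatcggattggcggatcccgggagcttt
Cdc20, minus strand, chr4:118437353-118437512: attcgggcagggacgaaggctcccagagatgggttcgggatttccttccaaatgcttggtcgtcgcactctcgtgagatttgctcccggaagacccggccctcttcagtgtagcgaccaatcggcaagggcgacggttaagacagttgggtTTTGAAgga

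E2F letters stood in 8 of 22 replication windows (36.4%), in 1 of 19 mitotic windows (5.26%) and in 2.26% of all 32851 windows of the same length. CHR letters stood in 5 of 22 replication windows (22.7%), in 14 of 19 mitotic windows (73.7%) and in 19.2% of all windows. The CCAAT box stood in 16 replication windows (72.7%), in 16 mitotic windows (84.2%) and in 37.4% of all windows. Of the replication windows, 10 held neither E2F nor CHR letters and 1 held both (Mcm7), and of the mitotic windows 5 held neither and 1 held both (Cdk1). The share of CHR letters in replication windows was thus near that of all windows. Where E2F matches overlapped, as in Mcm5 and Mcm6, the window was counted once. Letters and calls did not run together gene by gene. Of the replication members with E2F letters, Cdt1, Mcm3, Mcm5 and Mcm6 fell, while E2f2, Cdc6, Mcm7 and Pola1 did not pass. Ccne1, E2f1, Mcm10, Pcna, Rrm2 and Tk1, which fell, had neither E2F nor CHR letters in their windows, and nor had Rrm1, which rose. A match is a description of letters and not of binding, and Mcm4, Gins1, Gins2, Ccne2, Ccna2, Foxm1, Aurkb, Kif20a and Tpx2 had no window in the table. Only exact matches to the listed letters were counted, so a window without a match may still hold a variant of the element. Windows were placed at RefSeq starts. Those of E2f1 and Cdc6, both of Mcm7 and the downstream one of E2f2 lay wholly inside the gene by the GENCODE M21 annotation. Their letters, or the lack of them, therefore do not describe the promoter at the GENCODE start.

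**Figure D1:**
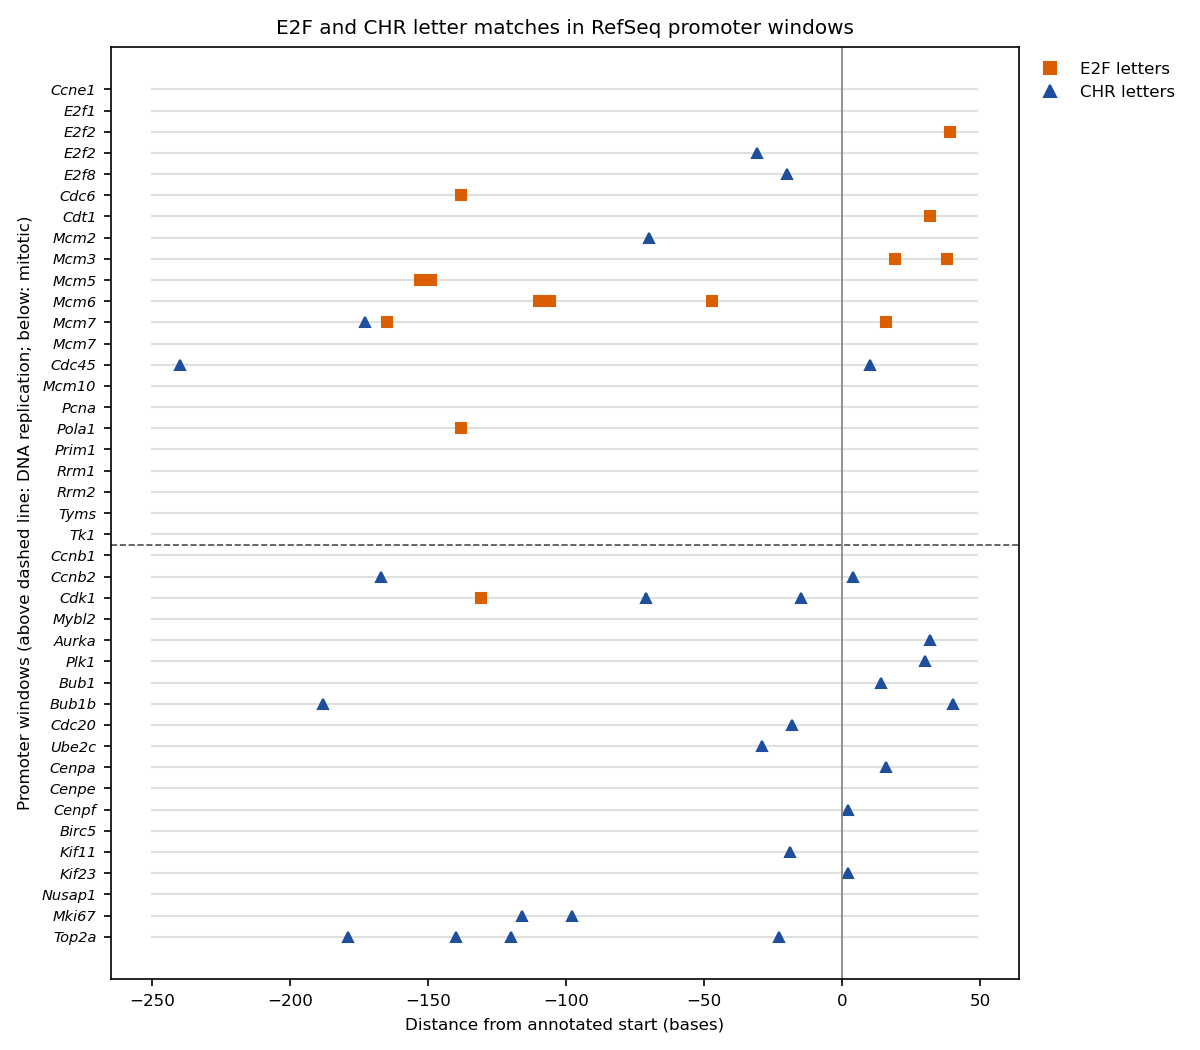
Matches of the E2F letters (squares) and the CHR letters (triangles) in the promoter windows of 39 members, by distance from the annotated start in bases; genes with 2 annotated starts have 2 lines. Squares lie mostly among the replication members above the dashed line (8 of 22 windows, against 1 of 19 mitotic windows) and triangles mostly among the mitotic members below it (14 of 19 windows, against 5 of 22).

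Total counts were 18679918 to 19104319 in the MGT+shScd1 libraries and 15135227 to 20894972 in the MGT+shNT libraries. MGT+shNT replicate 2 stood apart, with 3.32% of its counts on the ribosomal RNA gene Rn18s-rs5, against 0.129% to 0.199% in the other 3 libraries. Results are given with and without it where it changes them. A fit without 1 library takes its replicate spread from the pair left in the other group, beside what is borrowed across genes. The pairs differed in spread. Chi-square per degree of freedom was 2.82 between the MGT+shScd1 libraries and 43.6 between the MGT+shNT libraries, with Rn18s-rs5 counted. The 43.6 thus includes the gap in Rn18s-rs5 between the MGT+shNT libraries (0.199% and 3.32% of counts). A value without that gene was not computed, so the 43.6 does not give the spread of the other genes. Calls gained or lost in such fits may therefore depend on which pair is left. Scd1 had 6.64 and 8.04 CPM (counts scaled to library sizes adjusted by edgeR's TMM factors) in MGT+shScd1 cells, against 84.4 and 63.5 CPM in MGT+shNT cells (log2 fold change -3.34), so the targeted gene was low in the libraries labelled as knockdown. Fibroblast and cardiomyocyte markers were abundant in both groups. Counts of the 48 members ran from 19 to 2201 per library, so none rested on a handful of reads.

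Of the 24 replication members, 12 fell, 1 rose (Rrm1) and 11 did not pass in MGT+shScd1 cells at an adjusted p below 0.05 in edgeR's quasi-likelihood test, adjusted by Benjamini-Hochberg over all genes tested. Of the 24 mitotic members, 2 fell (Cenpa and Mki67), 0 rose and 22 did not pass. Across all genes tested, 29.3% passed, with 16.3% lower and 13.1% higher. Without normalisation factors the balance over all genes turned, with 1790 lower and 3073 higher, as it did on log2(FPKM + 1), with 1249 lower and 2256 higher. Falls made up 50% of the replication members and 8.33% of the mitotic members. The replication falls numbered 5 without MGT+shScd1 replicate 1 and 6 without replicate 2, where 7.90% and 9.29% of all genes were lower, and 4 on log2(FPKM + 1), where 7.69% were. The 2 mitotic falls remained without either of these libraries, so their share was then near that of all genes.

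The median log2 fold change, MGT+shScd1 over MGT+shNT, was -0.33 over the replication members and -0.0014 over the mitotic members, beside 0.000094 over all genes tested. Of the replication members, 21 lay below 0 and 3 above, whereas the mitotic members were split 12 and 12. Both MGT+shScd1 libraries lay below both MGT+shNT libraries for 15 replication and 4 mitotic members, beside 32.3% of all genes tested. Both lay above for 1 replication and 5 mitotic members, beside 32.0% of all genes tested. All changes were small. No called member changed as much as 2-fold, and the absolute log2 fold changes of the 15 called members ran from 0.25 to 0.75 with a median of 0.46, beside a median of 0.48 over all called genes. The difference between the 2 medians, -0.33, is a description, since the members were chosen with earlier results known, and it carries no p-value.

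**Figure D2:**
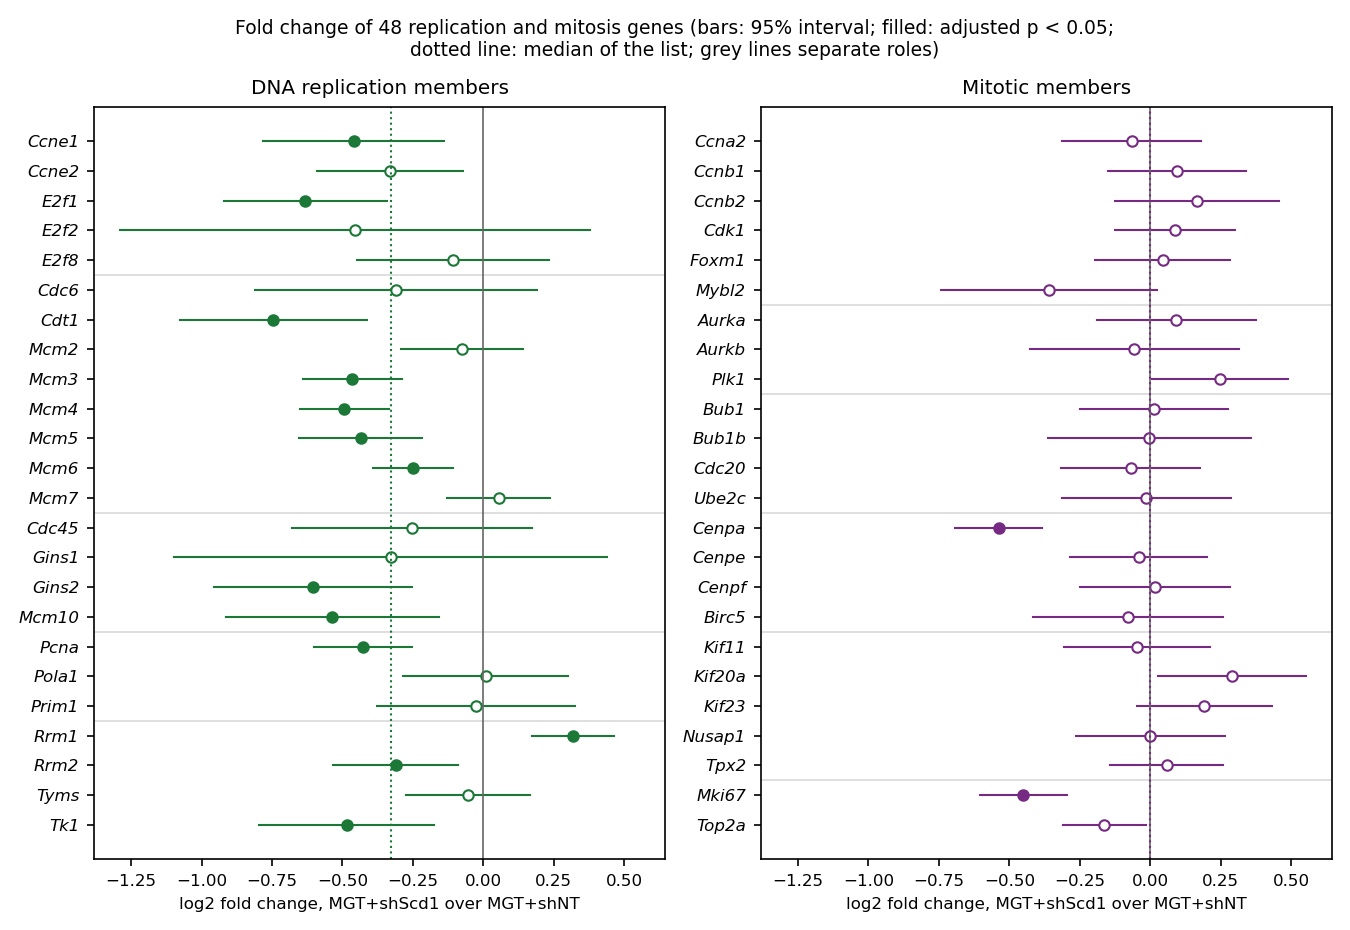
Log2 fold change (MGT+shScd1 over MGT+shNT) of the 24 replication members (left) and the 24 mitotic members (right), with 95% intervals; filled points passed the test and dotted lines mark the list medians of -0.33 and -0.0014. The replication points lie mostly left of 0, apart from Rrm1 at 0.32, and the mitotic points gather around 0 apart from Cenpa (-0.54) and Mki67 (-0.45).

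Summed over the replication members, the level was 530.2 and 533 CPM in MGT+shScd1 cells, against 595.3 and 623.4 CPM in MGT+shNT cells. Summed over the mitotic members it was 622.7 and 613.8 CPM in MGT+shScd1 cells, against 630.1 and 697.4 CPM in MGT+shNT cells. The replication sum divided by the mitotic sum was 0.851 and 0.868 in MGT+shScd1 cells, against 0.945 and 0.894 in MGT+shNT cells. The groups did not overlap in any of these values, but the 2 MGT+shNT libraries differed from each other more than the 2 MGT+shScd1 libraries did. Over all genes tested, the summed CPM was 93.4% and 93.6% of the MGT+shNT mean in MGT+shScd1 libraries. It was 97.8% and 102.2% in MGT+shNT libraries, also without overlap. On that scale the mitotic sum stood at 93.8% and 92.5% in MGT+shScd1 libraries, near all genes, and the replication sum at 87.0% and 87.5%. Sums are led by abundant members, in the mitotic list among them Cenpa and Mki67, which fell. With each mitotic member weighted alike, as a mean of log2 CPM, the groups overlapped. That mean was 4.45 and 4.41 in MGT+shScd1 cells, against 4.36 and 4.55 in MGT+shNT cells. Over the replication members the same mean was 3.74 and 3.75, against 4.02 and 4.07, without overlap. In 20 of 24 mitotic members MGT+shNT replicate 2 was above replicate 1, and the mitotic median was 0.10 without replicate 2 and -0.06 without replicate 1. The replication median stayed below 0 with any library left out, from -0.39 to -0.29.

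By role, the summed level of the G1/S cyclins and E2F genes was 76.5% and 73.7% of the MGT+shNT mean in the MGT+shScd1 libraries, that of the licensing and MCM genes 81.2% and 82.5%, and that of the helicase activation genes 69.8% and 74.3%. DNA synthesis genes stood at 80.7% and 84.8%, through Pcna alone, since Pola1 and Prim1 together had 22.6 and 27.0 CPM in MGT+shScd1 cells, against 23.0 and 26.9 CPM in MGT+shNT cells. Nucleotide supply was the exception among replication roles, at 107.9% and 105.5%, a sum led by Rrm1. In the mitotic list, the centromere genes (80.8% and 79.5%) and the chromosome structure genes (79.8% and 83.2%) were low through Cenpa and Mki67, while the G2/M regulators, kinases, checkpoint and spindle genes lay between 92.2% and 109.9%. The MGT+shNT libraries themselves ranged from 89.5% to 110.5%. Of these last 4 roles only the kinases, at 107.1% and 109.9% against at most 107.8% in MGT+shNT cells, had a library above both controls. For comparison, all genes tested summed to 93.4% and 93.6% in the MGT+shScd1 libraries.

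**Figure D3:**
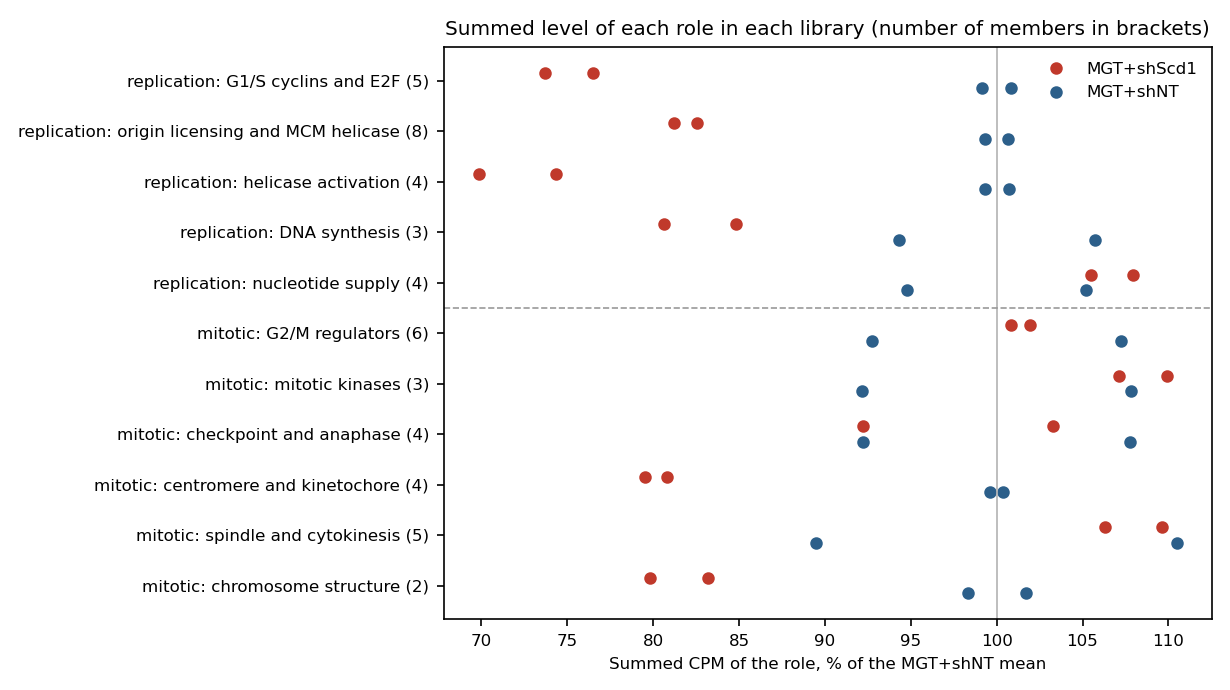
Summed CPM of each role in each library, as a percentage of the mean of the 2 MGT+shNT libraries; the dashed line separates replication roles from mitotic roles. The MGT+shScd1 points lie clear of the MGT+shNT points and to their left in 4 of 5 replication roles (69.8% to 84.8%, in DNA synthesis through Pcna) and in the centromere and chromosome structure roles. In the others they lie within the MGT+shNT range or close to it. All genes tested, not drawn, summed to 93.4% and 93.6% in the MGT+shScd1 libraries.

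Among the genes at the G1/S boundary, E2f1 and Ccne1 fell. E2f1, the transcription factor that activates replication genes (ENSMUSG00000027490, on the minus strand of chromosome 2 at 154559407 to 154569892 of GRCm38), had 14.3 and 11.7 CPM in MGT+shScd1 cells, against 21.9 and 18.3 CPM in MGT+shNT cells. All MGT+shScd1 values were below all MGT+shNT values, and the log2 fold change was -0.63 (SE 0.13, adjusted p = 0.0031). Ccne1, which encodes cyclin E1, the partner of Cdk2 at the entry into S phase, had 7.95 and 7.27 CPM in MGT+shScd1 cells, against 11.1 and 9.8 CPM in MGT+shNT cells (-0.46, SE 0.15, adjusted p = 0.0332). Ccne2, for cyclin E2, did not overlap between groups either, at 13.6 and 14 CPM in MGT+shScd1 cells, against 16.3 and 18.6 CPM in MGT+shNT cells, but just missed the threshold (-0.33, adjusted p = 0.0546); 17.4% of its exonic bases are shared with Ints8 on the other strand. E2f2, another activator, had under 2 CPM in every library (-0.46, adjusted p = 0.418), and the repressor E2f8 overlapped between groups (-0.11, adjusted p = 0.661). The E2f1 call was lost without MGT+shScd1 replicate 2. The Ccne1 call was lost with any library left out except MGT+shNT replicate 2, and Ccne2 passed without MGT+shNT replicate 1 (adjusted p = 0.017).

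Origin licensing showed the largest fall of the 48. Cdt1, the protein that brings the MCM helicase to origins (ENSMUSG00000006585, plus strand of chromosome 8, 122568015 to 122573554), had 5.88 and 6.12 CPM in MGT+shScd1 cells, against 9.75 and 10.4 CPM in MGT+shNT cells. Its replicates lay close together and the groups far apart, and the level was 0.597-fold (log2 -0.75, SE 0.15, adjusted p = 0.00256). Cdc6, its partner in loading, did not pass (-0.31, adjusted p = 0.357), as MGT+shNT replicate 2 held 4.62 CPM and replicate 1 held 7.37 CPM, against 5.42 and 4.41 CPM in MGT+shScd1 cells. The log2 fold change of Cdc6 was -0.58 without MGT+shNT replicate 2 and 0.10 without MGT+shNT replicate 1.

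The MCM helicase is a ring of 6 related subunits, and their transcripts did not all behave alike. Mcm3, Mcm4, Mcm5 and Mcm6 fell, and Mcm2 and Mcm7 did not pass. Mcm4 (ENSMUSG00000022673, minus strand of chromosome 16, 15623897 to 15637400) had 40 and 40.1 CPM in MGT+shScd1 cells, against 55.7 and 57.2 CPM in MGT+shNT cells (-0.49, SE 0.07, adjusted p = 0.000206). Mcm3 had 33 and 31.2 CPM in MGT+shScd1 cells, against 45 and 43.5 CPM in MGT+shNT cells (-0.46, SE 0.08, adjusted p = 0.000753). For both the gap between groups was wider than the gap between replicates. Mcm5 had 18.6 and 19.3 CPM in MGT+shScd1 cells, against 26.5 and 24.6 CPM in MGT+shNT cells (-0.44, adjusted p = 0.00521), and Mcm6 had 66 and 63.8 CPM in MGT+shScd1 cells, against 76.2 and 78.2 CPM in MGT+shNT cells (-0.25, adjusted p = 0.0111). The Mcm5 call was lost without MGT+shScd1 replicate 1 and the Mcm6 call without either MGT+shScd1 library. These are the 2 genes whose E2F letters are printed above.

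Mcm7 overlapped between groups, with 40.4 and 42.7 CPM in MGT+shScd1 cells, against 37.8 and 42.5 CPM in MGT+shNT cells, and its 95% interval of -0.13 to 0.24 on the log2 scale does not reach the -0.49 of Mcm4. Mcm2 had 28.1 and 33.6 CPM in MGT+shScd1 cells, against 31.9 and 33.2 CPM in MGT+shNT cells (interval -0.29 to 0.14). Per length, in the deposited FPKM, Mcm7 over Mcm4 was 0.819 and 0.863 in MGT+shScd1 cells, against 0.55 and 0.602 in MGT+shNT cells, a pair chosen after its values were seen. By the deposited exonic lengths, 4426 bases for Mcm7 and 3589 for Mcm4, the 2 subunits were thus closer to equal per length in MGT+shScd1 cells. Mcm7 shares 7.25% of its exonic bases with Ap4m1 on the opposite strand.

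Of the genes that activate the loaded helicase, Mcm10 and Gins2 fell. Mcm10 had 5.88 and 4.93 CPM in MGT+shScd1 cells, against 7.66 and 8.05 CPM in MGT+shNT cells (-0.54, SE 0.18, adjusted p = 0.0349). Gins2 had 6.74 and 8.2 CPM in MGT+shScd1 cells, against 12.5 and 10.1 CPM in MGT+shNT cells (-0.60, SE 0.16, adjusted p = 0.0129). The Gins2 value is uncertain, because 67.3% of its exonic bases are shared with Gse1 on the opposite strand and the strand setting of the counting is not given in the sources used here. Both calls were lost without MGT+shScd1 replicate 1, that of Mcm10 also without replicate 2, and that of Gins2 also without MGT+shNT replicate 1. Cdc45 (-0.25, adjusted p = 0.376) and Gins1, with at most 1.79 CPM in any library (-0.33, adjusted p = 0.539), did not pass.

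At the fork itself, Pcna fell and the polymerase genes did not pass. Pcna, the sliding clamp of the replicative polymerases (ENSMUSG00000027342, minus strand of chromosome 2, 132249162 to 132253314), had 36.8 and 35.6 CPM in MGT+shScd1 cells, against 46.5 and 51 CPM in MGT+shNT cells. The groups did not overlap and Pcna fell by 0.43 on the log2 scale (SE 0.08, adjusted p = 0.00139). A processed copy, Pcna-ps2, carried 249 and 220 counts in MGT+shScd1 cells, against 290 and 245 in MGT+shNT cells, so part of the Pcna reads may have been split between the 2 genes. Pola1, the catalytic subunit of polymerase alpha (0.01, interval -0.29 to 0.30), and Prim1, the primase subunit (-0.03, interval -0.38 to 0.33), overlapped between groups.

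The enzymes of nucleotide supply went both ways. Rrm1, the large subunit of ribonucleotide reductase (ENSMUSG00000030978, plus strand of chromosome 7, 102441695 to 102469771), had 111 and 108 CPM in MGT+shScd1 cells, against 83.6 and 93.1 CPM in MGT+shNT cells, and was the 1 member of the 48 that rose (0.32, SE 0.07, adjusted p = 0.00311). Rrm2, the small subunit of the same enzyme, whose level is known to follow S phase, had 23.5 and 24.1 CPM in MGT+shScd1 cells, against 27.2 and 32.1 CPM in MGT+shNT cells and fell (-0.31, SE 0.10, adjusted p = 0.0362). Per length, Rrm1 over Rrm2 in FPKM was 1.2 and 1.13 in MGT+shScd1 cells, against 0.772 and 0.73 in MGT+shNT cells. The ratio was thus higher in MGT+shScd1 cells. Which subunit is the higher one within a group depends on the deposited exonic lengths, 11012 bases for Rrm1 and 2771 for Rrm2. Transcript lengths in these cells were not measured, so no order of the subunits is drawn from the ratio. This pair too was chosen after its values were seen.

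Tk1, the thymidine kinase of S phase, had 10.4 and 11 CPM in MGT+shScd1 cells, against 13.2 and 17 CPM in MGT+shNT cells and fell (-0.48, SE 0.14, adjusted p = 0.0219). Tyms, the thymidylate synthase, overlapped between groups, with 23.4 and 21.4 CPM in MGT+shScd1 cells, against 24.1 and 22.3 CPM in MGT+shNT cells (-0.05, interval -0.28 to 0.17). The Rrm2 and Tk1 calls were lost with any library left out except MGT+shNT replicate 1, and the Rrm1 call without MGT+shScd1 replicate 1, where its log2 fold change was 0.30.

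**Figure D4:**
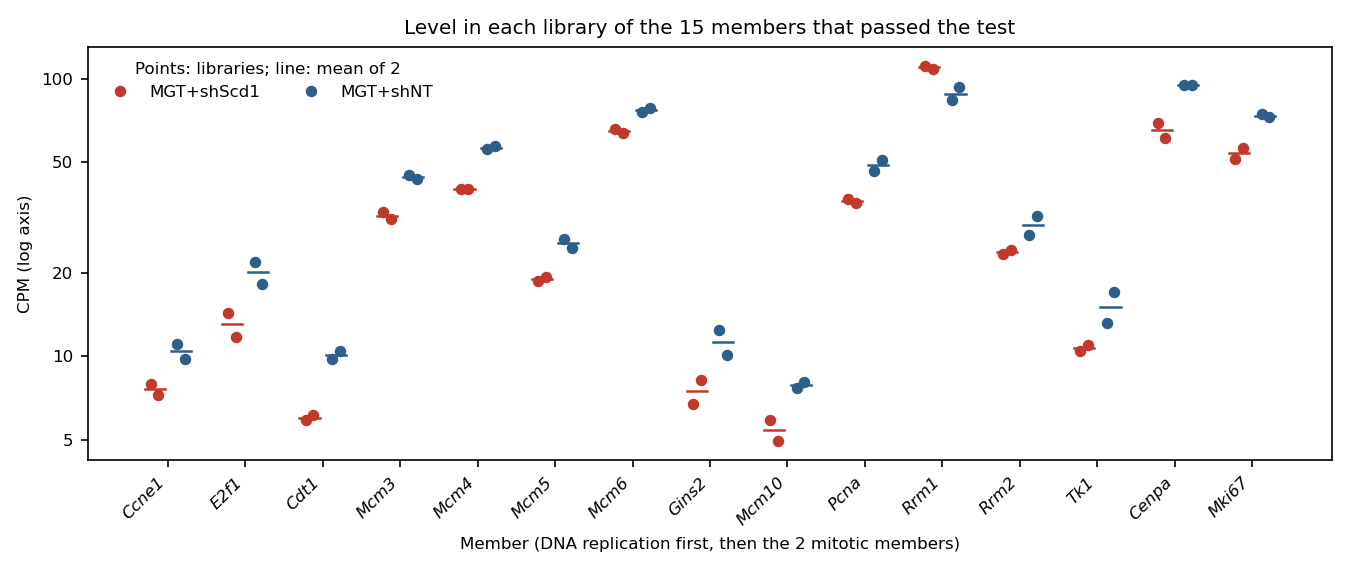
CPM in each library (log axis) of the 15 members that passed the test, MGT+shScd1 left of MGT+shNT, with lines at the means of 2 libraries. In each of the 15 the groups do not overlap; the MGT+shScd1 points are the lower ones in 14 and the higher ones in Rrm1.

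Cyclins, kinases and regulators of G2 and mitosis did not pass, and most overlapped between groups. Cdk1, the kinase that drives entry into mitosis, had 31.4 and 30.5 CPM in MGT+shScd1 cells, against 26.8 and 31.6 CPM in MGT+shNT cells (0.09, interval -0.12 to 0.30). Its partner cyclin B1, Ccnb1, had 26.6 and 23.8 CPM in MGT+shScd1 cells, against 21.4 and 26.1 CPM in MGT+shNT cells (0.10, interval -0.15 to 0.34). Ccna2, for cyclin A2, which acts in both S phase and G2, had 28.6 and 29.1 CPM in MGT+shScd1 cells, against 26.5 and 34.4 CPM in MGT+shNT cells (-0.07, interval -0.31 to 0.18). In all 3 the groups overlapped. Ccnb2 was above both MGT+shNT libraries in both MGT+shScd1 libraries (0.17, adjusted p = 0.397). The transcription factor Foxm1 had 21.1 and 25.5 CPM in MGT+shScd1 cells, against 23.1 and 22 CPM in MGT+shNT cells (0.04, interval -0.20 to 0.28). Mybl2, which encodes B-Myb and is itself a known E2F target, was the member of this role with the lowest value (-0.36, interval -0.74 to 0.02, adjusted p = 0.153), at 7.19 and 5.45 CPM in MGT+shScd1 cells, against 8 and 8.26 CPM in MGT+shNT cells.

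Plk1, the polo kinase of mitotic entry and exit, had 18.4 and 19.2 CPM in MGT+shScd1 cells, against 15.1 and 16.7 CPM in MGT+shNT cells, without overlap, and did not pass (0.25, adjusted p = 0.119). It passed as higher on both FPKM scales and without normalisation factors (adjusted p from 0.0321 to 0.035). Aurka (0.09), a centrosome kinase, and Aurkb (-0.06), the kinase of the chromosomal passenger complex, did not pass. The spindle checkpoint kinases Bub1 (0.02) and Bub1b (-0.0032) and the activators of anaphase, Cdc20 (-0.07) and Ube2c (-0.01), had values close to 0, with intervals between -0.36 and 0.36. Bub1b ranged from 10.5 to 15.7 CPM between the MGT+shNT replicates alone, a spread that held the MGT+shScd1 values of 12.6 and 13.2 CPM.

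Cenpa and Mki67 stood apart from the other mitotic members. Cenpa encodes the histone H3 variant that marks centromeres (ENSMUSG00000029177, plus strand of chromosome 5, 30666777 to 30674830), and had 69.4 and 61.2 CPM in MGT+shScd1 cells, against 95 and 94.8 CPM in MGT+shNT cells. Its log2 fold change of -0.54 (SE 0.07) had the lowest adjusted p of the 48 members, 9.29e-05. The kinetochore motor Cenpe (-0.04), the kinetochore protein Cenpf (0.02) and Birc5, or survivin, of the passenger complex (-0.08) did not pass, and the interval of Birc5 (-0.41 to 0.26) reached into that of Cenpa (-0.69 to -0.38). Mki67, which encodes the proliferation antigen Ki-67 that coats mitotic chromosomes (ENSMUSG00000031004, minus strand of chromosome 7, 135689784 to 135716361), had 51.5 and 56.4 CPM in MGT+shScd1 cells, against 74.6 and 72.7 CPM in MGT+shNT cells and fell (-0.45, SE 0.07, adjusted p = 0.000365). Top2a, the topoisomerase that untangles replicated DNA, did not overlap between groups, at 70.4 and 70.7 CPM in MGT+shScd1 cells, against 75.6 and 82.6 CPM in MGT+shNT cells, and did not pass (-0.16, adjusted p = 0.0932). Its log2 fold change was -0.22 without MGT+shNT replicate 1 and -0.10 without MGT+shNT replicate 2. The calls on Cenpa and Mki67 held with each of the 4 libraries left out.

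Of the 5 spindle and cytokinesis genes, 4 had values above 0 and none passed the test. Kif20a, the kinesin of the central spindle, had 37.9 and 34.3 CPM in MGT+shScd1 cells, against 25.4 and 34.2 CPM in MGT+shNT cells (0.29, interval 0.03 to 0.55, adjusted p = 0.0916), and 29.3% of its exonic bases are shared with Cdc23 on the opposite strand. Kif23, another kinesin of cytokinesis, had 27.5 and 26.4 CPM in MGT+shScd1 cells, against 21.2 and 26.3 CPM in MGT+shNT cells (0.19, adjusted p = 0.224). For both, the 2 MGT+shNT libraries lay further apart than the groups' nearest values. Without MGT+shNT replicate 2 both passed as higher, Kif20a at 0.51 (adjusted p = 2.79e-05) and Kif23 at 0.34 (adjusted p = 0.015), and Kif20a also passed with all 4 libraries in a fit blocked on replicate number (adjusted p = 0.02), with no filter on low counts (adjusted p = 0.0187) and without normalisation factors (adjusted p = 0.0216). Kif11 (-0.05), Tpx2 (0.06) and Nusap1 (0.00031), which build the spindle, overlapped between groups.

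Other genes of the same programmes had medians between those of the replication and mitotic members. Of 50 other replication genes, 7 fell (14%), 0 rose and 43 did not pass, a share of falls close to the 16.3% of all genes tested, yet 41 of 50 lay below 0 and the median was -0.21. Of 68 other mitotic genes, 8 fell (11.8%), 1 rose and 59 did not pass, with 43 below 0 and a median of -0.09. Among replication genes, Timeless, which with Tipin protects the fork, had 7.09 and 6.07 CPM in MGT+shScd1 cells, against 11.6 and 14.6 CPM in MGT+shNT cells (-0.98, adjusted p = 0.000482). The checkpoint adaptor Clspn (-0.55), the DNA ligase Lig1 (-0.38) and Topbp1 (-0.32) also fell. The mitotic genes that fell with the lowest adjusted p were 3 condensin genes, Ncapg2 (-0.74, adjusted p = 0.000181), Smc2 (-0.37) and Smc4 (-0.33), and the hyaluronan receptor and spindle protein Hmmr (-0.52). Aspm, the spindle pole protein, rose (0.35, adjusted p = 0.0403). E2F letters stood in 25.5% of the promoter windows of these other replication genes and in 8.82% of those of the other mitotic genes, and CHR letters in 15.7% and 64.7%.

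**Figure D5:**
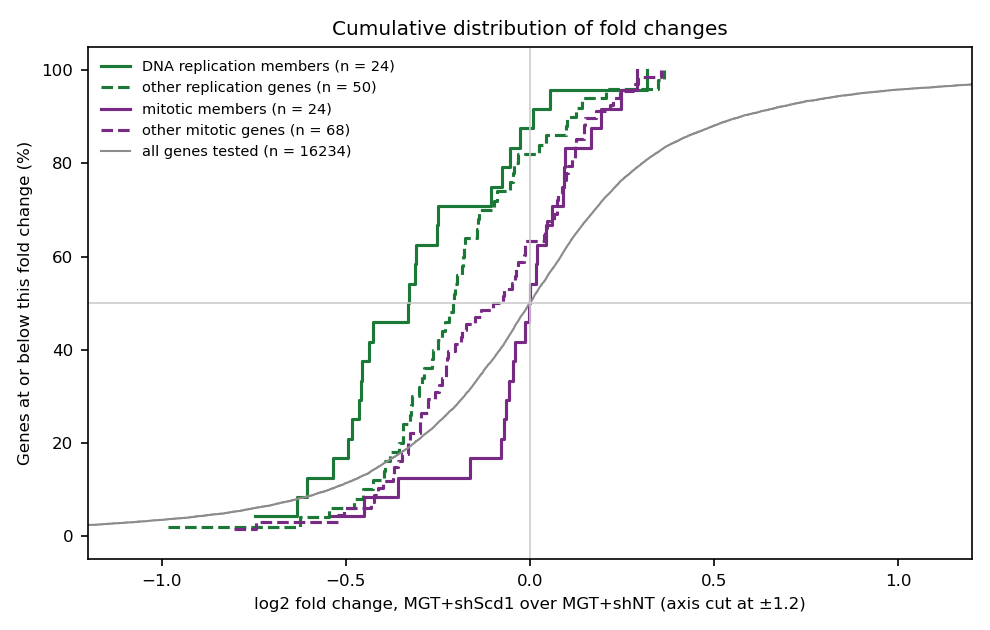
Cumulative share of genes (%) by log2 fold change, MGT+shScd1 over MGT+shNT, for the replication and mitotic members (solid), the other genes of both programmes (dashed) and all genes tested (grey). At the 50% line the curves cross at -0.33, -0.21, -0.09 and -0.0014 for replication members, other replication genes, other mitotic genes and mitotic members.

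Of 35 other regulators, 8 fell (22.9%, beside 16.3% of all genes tested), 3 rose (8.57%, beside 13.1%) and 24 did not pass (median -0.12). The brakes Rb1 (-0.46, adjusted p = 0.00134) and Rbl2 (-0.53, adjusted p = 0.000337), pocket proteins that hold E2F factors in check, fell, as did the E2F family repressor E2f6 (-0.54) and the phosphatase Cdc14b (-0.56). Myc rose, with 30.2 and 30.1 CPM in MGT+shScd1 cells, against 20.3 and 19.5 CPM in MGT+shNT cells (0.60, adjusted p = 0.000355). Cdc25a, the phosphatase that activates Cdk2 (0.44, adjusted p = 0.00485), and E2f5, an E2F that works with Rbl2 (0.43, adjusted p = 0.0216), rose as well.

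Markers of cell types, the starting fibroblasts among them, also differed between the same groups. In bulk libraries, fewer cells of a type and less RNA per cell cannot be told apart. Beside the marker counts below, 16.3% of all genes tested were lower and 13.1% higher. Of 10 macrophage markers, 6 fell and 0 rose, and no marker was at 0. Their summed level was 168.7 to 172.6 CPM in MGT+shScd1 cells, against 644.1 to 710.4 CPM in MGT+shNT cells. Most of that sum was Lyz2, at 126 and 118 CPM in MGT+shScd1 cells, against 568 and 552 CPM in MGT+shNT cells. Csf1r, Aif1, Fcgr1 and C1qa overlapped between groups and did not pass. Of 8 cardiac fibroblast markers, 6 fell and 0 rose, at 8339.7 to 8443.7 CPM summed in MGT+shScd1 cells, against 12687.3 to 13292.3 CPM in MGT+shNT cells. Col1a1 and Col1a2 made up most of that sum, and Pdgfra and Dcn did not pass. Of 8 cardiomyocyte markers, 4 rose and 2 fell, at 5513.6 to 5552.7 CPM in MGT+shScd1 cells, against 4679.9 to 5438.3 CPM in MGT+shNT cells. Tnnt2, the largest part of that sum in every library, was among those that fell. The epicardial and mesothelial markers (2 fell, 1 rose of 6) summed to 239.9 to 251 CPM in MGT+shScd1 cells, against 309.8 to 320.5 CPM in MGT+shNT cells. The endothelial markers (2 fell of 8) summed to 26.3 to 27.9 CPM in MGT+shScd1 cells, against 30.3 to 37.8 CPM in MGT+shNT cells. Most of the endothelial sum was Kdr, which did not pass, and 5 of the 8 overlapped between groups. The part of these shifts in the fall of replication genes was not tested.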

How the data were processed

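Stranded RNA-seq libraries were made after ribosomal RNA depletion, per the labels' protocols. The molecule label reads polyA RNA instead. Trimmomatic 0.36, featureCounts, Subread 1.5.1, SAMtools and the build mm10 are listed in the submitters' processing notes, while aligner, annotation and strand setting are not stated there. The authors deposited raw read counts per gene and library, and FPKM scaled to exonic length and total counts (100% of values were recomputed from the counts within 0.0051). The deposited start matched GENCODE M21 (GRCm38) for 1 of 48 members, so positions are from GENCODE M21.

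Counts were tested with edgeR 4.0.16 in R 4.3.3 (filterByExpr, minimum count 10, minimum total 15; TMM; quasi-likelihood test, group as the single term, two-sided). Standard errors and 95% intervals (unadjusted) were derived from the test's F statistic. Levels between genes are compared in FPKM only. Alternatives used DESeq2 1.42.0, limma 3.58.1, the deposited FPKM with a pseudocount of 1 or 0.1, and libraries left out.

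The members and gene lists were chosen with earlier results of these data known. All 48 members are named; from each list of other cell cycle genes, up to 4 called genes in each direction with the lowest adjusted p are named. Precision was lowest for the low members E2f2 and Gins1 (SE 0.39 and 0.36 on the log2 scale).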

Additional observations from a re-analysis of the deposited data

How the results depend on the processing

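The replication median stayed below the mitotic median in the 12 alternatives that can move a median, and no called member changed sign in any of 13. The replication median was -0.17 on log2(FPKM + 1), -0.22 on log2(FPKM + 0.1) and -0.24 with edgeR without normalisation factors, an alternative chosen after seeing the data, as was the difference of medians, and -0.39 to -0.29 with 1 library left out. On those 3 scales the median of all genes lay at 0.064, 0.094 and 0.094. The mitotic median was 0.09 without normalisation factors and from -0.064 to 0.10 with 1 library left out. The replication median minus the mitotic median was -0.23 on log2(FPKM + 1) and from -0.40 to -0.31 with 1 library left out, against -0.33. Falls among replication members numbered 12 in the main test, 6 at an adjusted p below 0.01, 7 with the DESeq2 Wald test, 4 on each FPKM scale and 5 to 11 with 1 library left out (5 and 6 without MGT+shScd1 replicates 1 and 2). Rises among them numbered 0 to 1 with 1 library left out. Rises among mitotic members, 0 in the main test, numbered 2 without normalisation factors, 1 with no filter on low counts, 1 on each FPKM scale and 0 to 2 with 1 library left out, and falls numbered 1 on log2(FPKM + 1) and 2 to 3 with 1 library left out. Over all genes, 1203 were higher and 1760 lower at an adjusted p below 0.01, and 1369 were higher and 1928 lower with DESeq2. With pseudocounts of 1 and 0.1, 1249 and 1266 were lower (2256 and 2260 higher). Without normalisation factors 1790 were lower and 3073 higher, so that lower genes made up 36.8% of all calls, against 55.4% in the main test. Higher genes numbered 860 to 2386 and lower genes 1357 to 2945 with 1 library left out. The calls on Cdt1, Mcm3, Mcm4, Pcna and Cenpa held in all 13 alternatives, and those on Mki67 and Rrm1 in 12. The call on Mki67 was missing on log2(FPKM + 1) (adjusted p = 0.0512) and that on Rrm1 without MGT+shScd1 replicate 1. Of the 33 members that did not pass, 23 changed sign in at least 1 alternative. The replicate numbers are not said to pair the samples, and same-numbered libraries did not deviate together (correlation of deviations 0.0077). With the replicate block, 13 replication members fell, 1 mitotic member rose (Kif20a) and 2 fell. Of all genes, 16.9% were then lower and 13.9% higher. Where a count changed, the cause was not tested, apart from the fewer libraries or stricter threshold of the alternative itself.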
